A study of Homo sapiens with 6 samples.

Results

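The genes described here are 7 genes of sterol and fatty acid synthesis that the SREBP transcription factors control. They are HMGCS1, IDI1, FDFT1 and SQLE of the sterol pathway, FASN and SCD of fatty acid synthesis, and INSIG1, a regulator of the pathway. They were chosen by name, each matched to 1 Ensembl identifier, out of 57500 genes in the count tables, 57465 of them nuclear genes (not encoded by mitochondrial DNA). RNA was taken from mitochondria isolated with a kit from HepG2 cells, a human liver carcinoma line labelled wild type. All cells were cultured in the same serum-containing medium and exposed for 48 h, to the solvent DMSO alone (control, 0 µM), to 10 µM GenX or to 100 µM GenX. GenX is a fluorinated ether compound, one of the PFAS, used as a processing aid for fluoropolymers in place of older long-chain PFAS. There were 2 libraries per dose, 6 in all, depleted of ribosomal RNA. All carry the same batch label, 1. Nothing in the labels ties the 2 libraries of a dose to separate cultures. The p-values below therefore reflect the spread between these libraries alone, and that spread may be technical.

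SREBP proteins are made as precursors held in the membrane of the endoplasmic reticulum by the sterol sensor SCAP and by INSIG proteins. When membrane sterol falls, SCAP carries SREBP to the Golgi, where a pair of proteases releases the active factor, which enters the nucleus and raises transcription of enzymes of cholesterol and unsaturated fatty acid synthesis. The liver is a main site of both pathways. The products of all 7 genes work in the cytosol, peroxisomes or endoplasmic reticulum, and their messenger RNAs are transcribed in the nucleus, so in a mitochondrial preparation they are read beside mitochondrial transcripts and not as part of the organelle's own genome.

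Of the 7 genes, SCD was the only one with a count in all 6 libraries and held most of the members' counts in 5 of them. SCD took a lower share of nuclear-gene counts in both 10 µM libraries than in either control or 100 µM library, although its differences did not pass the test across all genes. Those 10 µM shares rest on 1 and 3 counts, and their counting intervals overlapped that of control 2. The shares of HMGCS1 at 10 and 100 µM overlapped. SQLE was counted at both GenX doses and in neither control, and its highest share came from 16 counts in 1 of the 10 µM libraries. IDI1 was counted at 100 µM alone, and INSIG1 had no count in any library.

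The control region next to the start of a gene is where SREBP and its partners bind, so it is shown for 3 members with unlike counts. These are SCD, the most abundant, HMGCS1, counted in 5 libraries, and INSIG1, counted in none. The sequences are the RefSeq promoters (GRCh38.p14), cut at the first exon base of the gene in the count tables, written 5′ to 3′ on the gene's own strand. Capitals mark the CCAAT box, the site of the factor NF-Y, which reads ATTGG where it lies on the other strand.
SCD (chr10:100346983-100347123, plus strand): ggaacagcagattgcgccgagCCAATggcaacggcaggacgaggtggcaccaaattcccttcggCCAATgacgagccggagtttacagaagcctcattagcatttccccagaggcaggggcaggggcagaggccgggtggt
HMGCS1 (chr5:43313513-43313662, minus strand): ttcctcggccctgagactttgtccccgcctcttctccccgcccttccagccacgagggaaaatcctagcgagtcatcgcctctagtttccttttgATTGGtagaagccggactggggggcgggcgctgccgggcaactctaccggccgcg
INSIG1 (chr7:155297628-155297775, plus strand): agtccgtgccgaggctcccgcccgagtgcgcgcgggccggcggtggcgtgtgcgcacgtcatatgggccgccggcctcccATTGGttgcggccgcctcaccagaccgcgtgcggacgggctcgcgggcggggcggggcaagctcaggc

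SCD carried 2 CCAAT boxes in its stretch, and HMGCS1 and INSIG1 carried 1 each. The RefSeq promoter of HMGCS1 held CCAAT boxes 155 and 100 bases before its start, and the cut at the first exon base left out the second. RefSeq promoters were at hand for 4 of the 7 genes, with 7 start sites between them. In the 250 bases before the start, searched on both strands, all 4 genes (HMGCS1, IDI1, INSIG1 and SCD) held a CCAAT box at 1 or more of their start sites, at 5 of the 7 sites, against 32.0% of the 35116 RefSeq promoters. The same 4 genes held a GC box (GGGCGG) at all 7 sites, against 42.6% of promoters. An E-box (CACGTG) was found for INSIG1 alone, against 6.34%, and TCACNCCAC, a core of the sterol regulatory element, for none, against 0.883%. INSIG1, with no count, thus held a CCAAT box and a GC box as SCD did. A match is a description of these letters and does not show that a factor was bound.

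Depth set what could be seen. Library totals ran from 29350 to 2141282 counts on genes, and the counts on nuclear genes were 230210 and 54502 under DMSO, 24505 and 11406 under 10 µM and 2064527 and 1293961 under 100 µM GenX. Shares are given here as nuclear CPM, counts scaled so that the nuclear genes of a library sum to 1000000, because mitochondrial genes took 43.7% and 61.1% of all counts at 10 µM, 4.35% and 10.4% under DMSO, and from 3.32% to 3.58% at 100 µM. A gene with 0 counts may still have reached the level of 3 counts, which was 13.0 and 55.0 nuclear CPM under DMSO, 122 and 263 under 10 µM and 1.45 and 2.32 under 100 µM GenX. On the CPM scale, where all genes of a library sum to 1000000, the same limit was 12.5 and 49.3, 68.9 and 102, and 1.40 and 2.24. Such limits and the exact binomial intervals below cover counting error only. In these samples a lower share of a messenger RNA and a mitochondrial preparation with less RNA from the rest of the cell cannot be told apart, nor can fewer cells and less RNA per cell.

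The makeup of the nuclear counts also moved with dose. The nuclear-retained RNAs MALAT1 and NEAT1 together took 14.5% and 6.08% of nuclear counts under DMSO, 0.0857% and 0.140% under 10 µM and 3.47% and 3.18% under 100 µM GenX, and both genes were counted in every library. Of all protein-coding nuclear genes, 36.7% and 22.8% were counted under DMSO, 18.0% and 12.6% under 10 µM and 54.3% and 48.0% under 100 µM. Of 10 hepatocyte genes, 6 were counted in each control, 7 and 2 at 10 µM, and 10 and 9 at 100 µM. Their summed share was 0.620% and 1.51% under DMSO, 0.0775% and 0.0351% under 10 µM and 1.14% and 1.12% under 100 µM GenX. ALB, which encodes serum albumin, had 22 and 31 counts under DMSO, 2 and 0 under 10 µM and 176 and 232 under 100 µM GenX. TTR, which encodes transthyretin, was at 0 in both controls, and AFP, the fetal albumin relative that HepG2 is known for, was counted in the 100 µM libraries alone. The most abundant of the list was APOA2, an apolipoprotein, with 954 and 454 counts under DMSO, 4 and 2 under 10 µM and 18293 and 11076 under 100 µM GenX. Of 9 genes of other cell types, 5 or 6 were counted in each control and 100 µM library and 2 in each 10 µM library, at a summed share of 0.205% and 0.605%, 0.0367% and 0.0614%, and 0.233% and 0.25%. The leukocyte markers PTPRC and CD68 were at 0 in all 6 libraries. The epithelial keratin KRT19 held most of the list's counts under DMSO (407 and 315) and 100 µM GenX (3478 and 2728) but had 0 and 1 counts at 10 µM, where COL1A1 had 6 and 6. The part of this shift in the members' shares was not tested.

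SCD, on chromosome 10 (GRCh38 100347124 to 100364834), encodes stearoyl-CoA desaturase, the enzyme of the endoplasmic reticulum that puts a double bond into saturated fatty acids. It had 364 and 19 counts under DMSO, 1 and 3 under 10 µM and 2487 and 1696 under 100 µM GenX. As shares, these were 1581 (95% interval 1423 to 1752) and 349 (210 to 544) nuclear CPM under DMSO, 40.8 (1.03 to 227) and 263 (54.2 to 768) under 10 µM and 1205 (1158 to 1253) and 1311 (1249 to 1375) under 100 µM GenX. Both 10 µM libraries lay below both controls and below both 100 µM libraries, while the 100 µM values lay between the 2 controls. The intervals of both 10 µM libraries overlapped that of control 2, so the order against that control is within counting error. On the CPM scale, controls averaged 912 ± 849 (SD, n = 2), the 10 µM libraries 62.6 ± 56.0 and the 100 µM libraries 1214 ± 74.8.

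**Figure D1:**
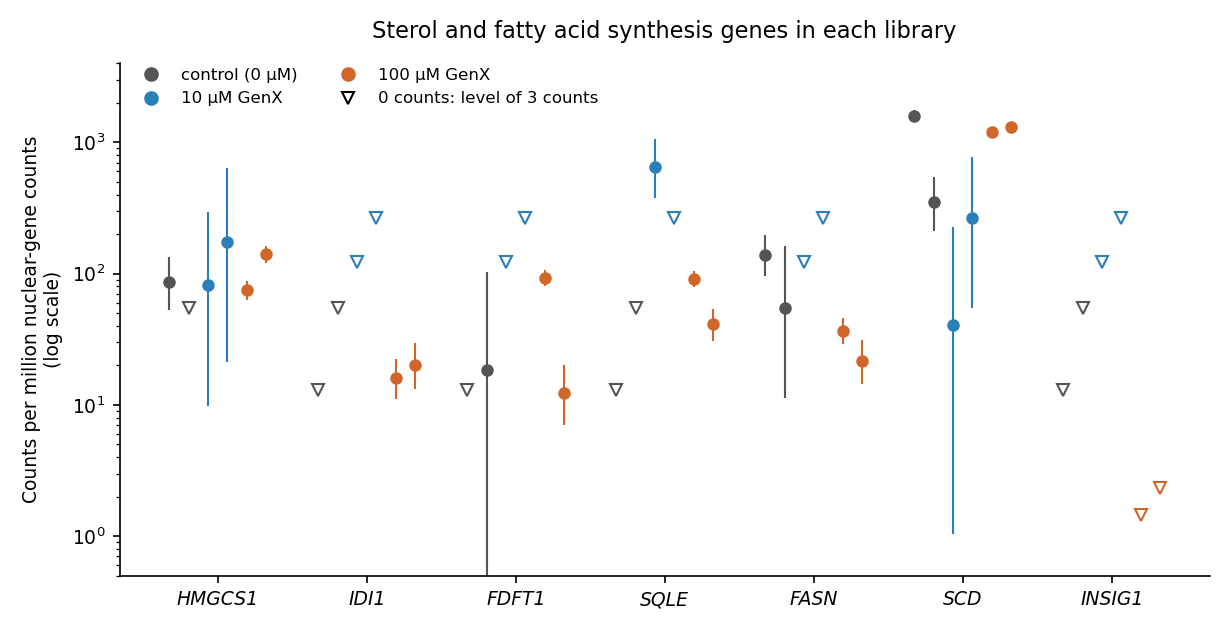
Share of nuclear-gene counts (nuclear CPM, log scale) of the 7 genes in each of the 6 libraries, with exact 95% binomial intervals as bars and open triangles at the level of 3 counts for libraries with 0 counts. SCD sits from 1205 to 1581 in control 1 and the 100 µM libraries and at 40.8 and 263 at 10 µM, and INSIG1 has triangles alone.

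Had the 10 µM libraries held SCD at the pooled share of the controls, they would have given 33.0 and 15.3 counts. At the pooled share of the 100 µM libraries they would have given 30.5 and 14.2. They gave 1 and 3. Pooled over the libraries of each group, SCD was 12.1-fold lower at 10 µM than in the controls (95% counting interval 4.68 to 44.6), 14.2-fold without control 2 and 3.13-fold (1.04 to 12.7) without control 1. It was 11.2-fold higher at 100 µM than at 10 µM (4.36 to 41.1). Without the 10 µM library with 3 counts these folds were 33.0 and 30.5, and without the one with 1 count 5.11 and 4.74. The direction was the same in each case, while the size depended on which library was left out.

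**Figure D2:**
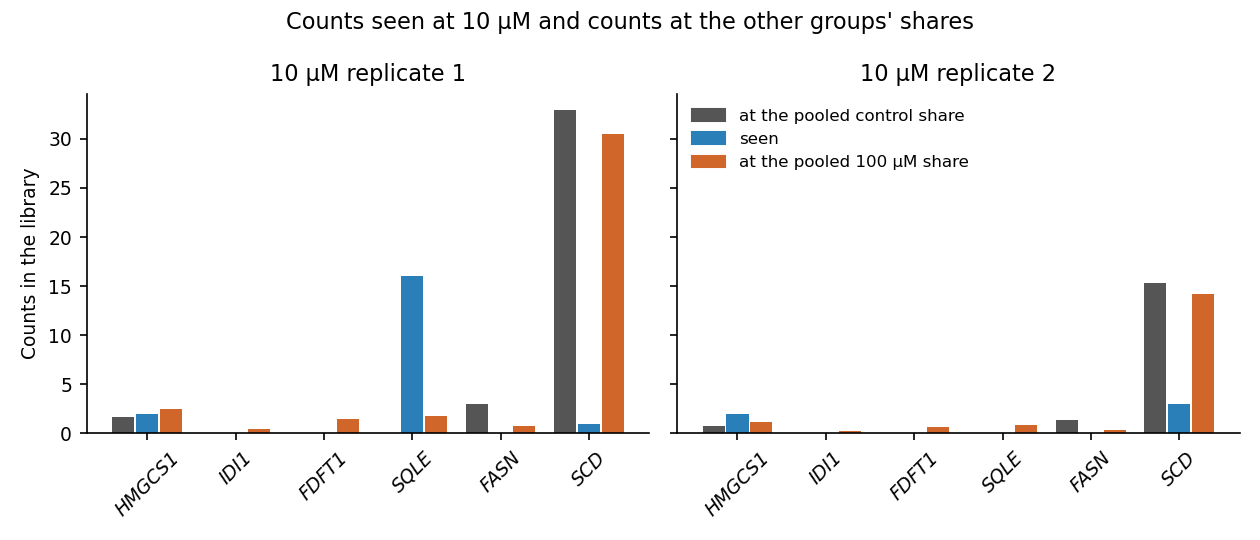
Counts seen in each 10 µM library for 6 genes, beside the counts that library would hold at the pooled nuclear share of the controls or of the 100 µM libraries. SCD was seen at 1 and 3 counts where the other groups' shares give from 14.2 to 33.0, and SQLE at 16 counts in replicate 1 where the 100 µM share gives 1.76.

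Across all genes, 3 of the 7 (SCD, SQLE and HMGCS1) passed the filter on low counts and entered edgeR's quasi-likelihood test. Of these, 0 passed in any of the 3 comparisons. The share of all 3180 tested genes that passed was 0.597% at 10 µM against control, 0% at 100 µM against control and 2.86% at 100 µM against 10 µM, so 0 of 3 is close to the background. Of all tested genes, 895, 573 and 1150 had an unadjusted p under 0.05 in these comparisons by edgeR's test. DESeq2's Wald test gave an adjusted p to 4, 1 and 4 members in the same order and called 0 of them. It called 0.29% of genes at 10 µM against control (15 of 5169), 0.807% at 100 µM against control (11 of 1363) and 13.8% at 100 µM against 10 µM (925 of 6691). For SCD the log2 fold change was -4.40 ± 1.47 (SE, n = 2 per group) with an adjusted p of 0.145 by the edgeR quasi-likelihood fit at 10 µM against control. It was 4.02 ± 1.45 (adjusted p = 0.13) at 100 µM against 10 µM and -0.38 ± 1.20 (adjusted p = 0.887) at 100 µM against control. The median over all tested genes was -3.18, 3.52 and 0.35 in the same comparisons. That median depended on the fit and on the genes it covered. In DESeq2's Wald test it was taken over all genes with a count, a wider set than the 3180. There it was 0 at 10 µM against control and -1.16 at 100 µM against 10 µM, while SCD had -4.20 and 3.47. These comparisons share groups and are not independent of each other.

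SCD passed in some other fits of the same counts. At 10 µM against control it passed without control 2 (-5.80, adjusted p = 7.13e-05 by the edgeR quasi-likelihood fit), where 12.5% of all tested genes passed. That fit has control 1 alone in the control arm, the library with the highest SCD share, and assumes that it varies like the other groups. Between 100 and 10 µM, in the same test, SCD passed without control 1 (4.74, adjusted p = 0.00619), where 36% of genes passed, and without control 2 (4.86, adjusted p = 0.000191), where 18.5% did. It also passed with only the 4 libraries compared (4.27, adjusted p = 0.0414), beside 4.44% of genes, and with a mean of at least 5 CPM as the filter (5.82, adjusted p = 0.0453), beside 2.43%. Leaving out a control thus brought many genes past the threshold, and SCD was 1 of them. The 2 controls differed 4.54-fold in SCD (counting interval 2.86 to 7.62), and the 100 µM replicates by 1.09-fold. The pooled ratio of 100 µM to control was 0.926 (0.834 to 1.03), then 3.57 (2.28 to 5.94) without control 1.

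FASN, on chromosome 17 (82078333 to 82098332), encodes fatty acid synthase, the large cytosolic enzyme that builds palmitate from acetyl and malonyl groups. It had 32 and 3 counts under DMSO, 0 in both 10 µM libraries and 76 and 28 under 100 µM GenX. The shares were 139 (95.1 to 196) and 55.0 (11.4 to 161) nuclear CPM under DMSO, and 36.8 (29.004 to 46.1) and 21.6 (14.4 to 31.3) at 100 µM. FASN was thus lower in both 100 µM libraries than in both controls, unlike SCD. It did not pass the filter on low counts of the main fit. Other fits by edgeR's quasi-likelihood test held FASN, and it passed in none of these at 100 µM against control. Its log2 fold change was -2.25 (adjusted p = 0.412) with only the 4 libraries compared. With a mean of at least 5 CPM it was -1.48 (adjusted p = 0.850), and with no filter -1.84 (adjusted p = 0.974). Pooled, FASN was 3.97-fold lower at 100 µM than in the controls (counting interval 2.63 to 5.87), then 1.78-fold (0.361 to 5.34) without control 1. With the 10 µM libraries set to the limit of 3 counts, the pooled fall from the controls was 1.47-fold. That fold leaves out the counting error of the control counts. Without control 1 or without 10 µM replicate 1 no fold could be set.

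HMGCS1 was counted in more libraries than the other sterol enzymes. It lies on chromosome 5 (43289395 to 43313512) and encodes the cytosolic synthase that makes HMG-CoA early in the sterol pathway. Its counts were 20 and 0 under DMSO, 2 and 2 under 10 µM and 154 and 181 under 100 µM GenX. Its shares were 86.9 (53.1 to 134) nuclear CPM in control 1, 81.6 (9.88 to 295) and 175 (21.2 to 633) at 10 µM, and 74.6 (63.3 to 87.3) and 140 (120 to 162) at 100 µM. The 0 of control 2 allowed up to 55.0 nuclear CPM, which is below each of the other 5 values. The 2 treated groups overlapped, and the counting intervals at 10 µM spanned more than 10-fold.

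For HMGCS1 the log2 fold changes were -0.19 ± 1.66 (adjusted p = 0.962) at 10 µM against control, 0.34 ± 1.47 (0.922) at 100 µM against control and 0.53 ± 1.62 (0.810) at 100 µM against 10 µM, in edgeR's quasi-likelihood test. Their signs changed with the scaling, and with DESeq2 size factors they were 0.35, -0.10 and -0.45. The 10 µM libraries would have held 1.72 and 0.801 counts at the pooled control share and 2.44 and 1.14 at the 100 µM share, against the 2 and 2 seen. While most tested genes were fitted lower at 10 µM than in the controls, the value for HMGCS1 stood near 0, with a standard error that covers changes of either sign.

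SQLE, on chromosome 8 (124998497 to 125022283), encodes squalene epoxidase, which adds the first oxygen on the way from squalene to cholesterol. It had 0 counts in both controls. Under 10 µM GenX it had 16 and 0 counts, and under 100 µM it had 188 and 53. The shares were 653 (373 to 1060) nuclear CPM in 10 µM replicate 1, and 91.1 (78.5 to 105) and 41.0 (30.7 to 53.6) at 100 µM. The limits of the controls were 13.0 and 55.0 and that of 10 µM replicate 2 was 263. SQLE was the most abundant member in 10 µM replicate 1, where 1.52% of protein-coding nuclear genes had at least 16 counts. No library repeated that value, and the other 10 µM library held at least 2.48-fold less.

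Against the controls pooled, SQLE was at least 6.81-fold higher at 100 µM, at least 1.30-fold with control 2 alone at least 5.51-fold with control 1 alone and at least 3.89-fold without 100 µM replicate 1. Control 1 would have held 16.5 counts at the 100 µM share, and control 2 would have held 3.91. Set up in the same way, the fold at 10 µM was 42.3, all of it from replicate 1, and 8.09 without control 1. Without 10 µM replicate 1 both groups were at 0. The fitted log2 fold changes were 10.32 ± 3.57 (adjusted p = 0.148) at 10 µM and 8.31 ± 3.80 (adjusted p = 0.284) at 100 µM against control in edgeR's quasi-likelihood test. Both fold changes, and the SEs derived from them, depend on the prior count because the controls were at 0. Between the doses SQLE had -2.02 ± 1.69 (100 µM against 10 µM, adjusted p = 0.362), and the sign turned to 8.58 without 10 µM replicate 1.

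FDFT1 and IDI1 were counted mainly at 100 µM. FDFT1, on chromosome 8 (11795573 to 11839309), encodes squalene synthase, the first enzyme committed to sterols. It had 0 and 1 counts under DMSO, 0 and 0 under 10 µM and 191 and 16 under 100 µM GenX. The 100 µM shares of 92.5 (79.9 to 107) and 12.4 (7.07 to 20.1) nuclear CPM differed 7.48-fold between the replicates (counting interval 4.49 to 13.4). The pooled ratio of 100 µM to control was 17.5 (3.11 to 696), then 3.52 (0.547 to 148) without 100 µM replicate 1 and 3.36 (0.596 to 133) without control 1. The counting intervals of the last pair included 1, and replicate 2 lay below the single-count share of control 2, which was 18.3.

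IDI1, on chromosome 10 (1039908 to 1049170), encodes the isomerase that turns isopentenyl diphosphate into its reactive partner. It had 33 and 26 counts at 100 µM and 0 in the other 4 libraries. The shares at 100 µM were 15.98 (11.0 to 22.4) and 20.1 (13.1 to 29.4) nuclear CPM, the closest pair of the lower members. These lay above the limit of control 1 (13.0) and below those of control 2 (55.0) and of both 10 µM libraries. With the pooled controls set to 3 counts the difference was 1.67-fold, which leaves out the counting error of the IDI1 counts. No fold could be set with control 2 alone. At the 100 µM share the 4 other libraries would have held 4.04, 0.957, 0.430 and 0.2004 counts, against the 0 seen in each.

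INSIG1, on chromosome 7 (155297776 to 155310235), encodes the protein of the endoplasmic reticulum that keeps SCAP and SREBP there, and its own gene is a known SREBP target. It had 0 counts in all 6 libraries, which at 100 µM allows up to 1.45 and 2.32 nuclear CPM. At the mean level of all nuclear genes per kilobase, INSIG1 would have held 55.8 and 35.0 counts in these libraries. Its exons in the count tables overlapped no other gene. Of 19724 protein-coding nuclear genes, 30.4% were without a count throughout. The related gene INSIG2, which has the same role in holding SCAP, had 199 and 3 counts under DMSO, 1 and 0 under 10 µM and 3138 and 1670 under 100 µM GenX.

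The overlap of other genes with the members was small and lay on the other strand. It covered 15.0% of the exon bases of HMGCS1, 17.9% of IDI1 and 4.17% of FDFT1, and none of SQLE, FASN or SCD. The partner of IDI1, IDI2-AS1, and that of HMGCS1 had 113 and 9 counts over all libraries, and that of FDFT1 had 0. The libraries were stranded per the labels, but the strand setting of the counting is not known here, so IDI1 and HMGCS1 counts in these stretches are uncertain. The 3 named pseudogenes of IDI1 had 0 counts and that of SCD had 2.

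Compared between genes per kilobase of exon, SCD was the highest of the 7 in 5 libraries. Each level was divided by the mean over all nuclear genes in the same library, the level a gene would have if nuclear counts were spread by exon length alone. On this scale of relative level per kilobase SCD stood at 39.8 and 8.78 under DMSO, 1.03 and 6.63 under 10 µM and 30.3 and 33.0 under 100 µM GenX. HMGCS1 stood at 2.496, 2.34, 5.04, 2.14 and 4.02 in the 5 libraries where it was counted. SQLE reached 20.5 in 10 µM replicate 1, against 2.86 and 1.29 at 100 µM. FASN (2.01, 0.794, 0.531 and 0.312 where it was counted) and IDI1 (0.602 and 0.756 at 100 µM) gave 6 values, of which that of FASN in control 1 alone lay above the nuclear mean. At 100 µM the order of mean level was SCD, HMGCS1, SQLE, FDFT1, IDI1 and FASN, with 235 ± 14.0, 22.8 ± 9.82, 15.3 ± 8.23, 10.1 ± 10.9, 5.03 ± 0.810 and 3.12 ± 1.15 nuclear CPM per kilobase (SD, n = 2). SCD stood above all others in both libraries, while HMGCS1 and SQLE, SQLE and FDFT1, and FDFT1 and IDI1 overlapped in their replicate values. IDI1 and FASN did not.

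**Figure D3:**
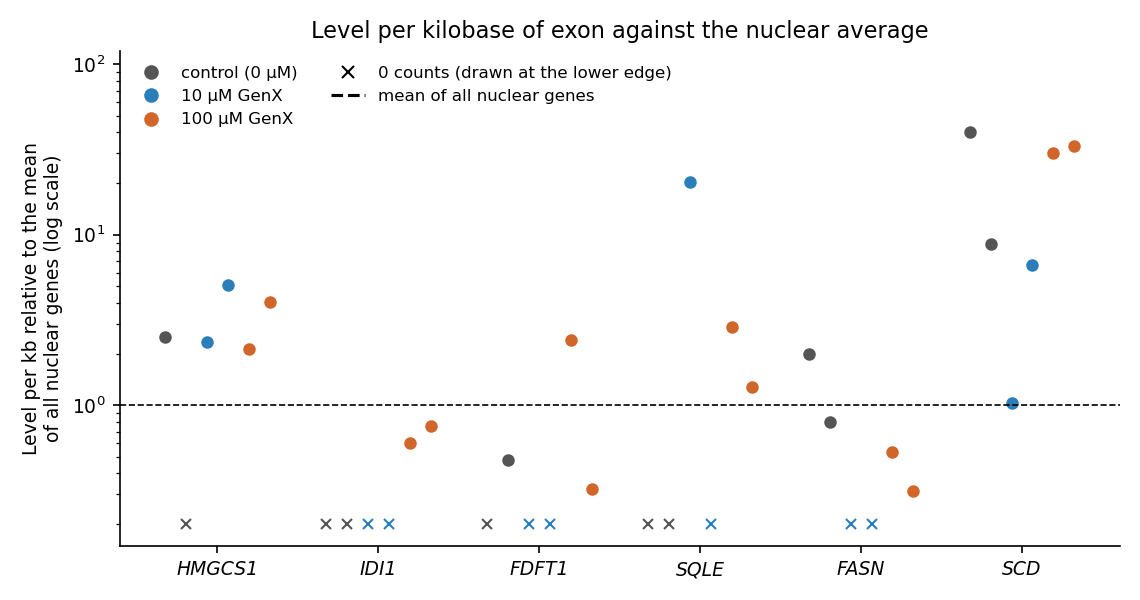
Level per kilobase of exon of 6 genes in each library, divided by the mean of all nuclear genes (dashed line at 1, log scale), with crosses for 0 counts. SCD lies at 39.8 and 8.78 under DMSO and at 1.03 and 6.63 under 10 µM GenX, and HMGCS1 lies from 2.14 to 5.04 wherever it was counted.

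Summed over the 7 genes, the counts were 416 and 23 under DMSO, 19 and 5 under 10 µM and 3129 and 2000 under 100 µM GenX. The summed share was 1807 (1638 to 1989) and 422 (268 to 633) nuclear CPM under DMSO, 775 (467 to 1211) and 438 (142 to 1023) under 10 µM and 1516 (1463 to 1570) and 1546 (1479 to 1615) under 100 µM GenX. As group means these were 1115 ± 979, 607 ± 238 and 1531 ± 21.2 (SD, n = 2). The values at both doses fell inside the range of the 2 controls, and both 100 µM values lay above both 10 µM values. SCD made up 87.5% and 82.6% of the members' counts under DMSO, 5.26% and 60.0% under 10 µM and 79.5% and 84.8% under 100 µM GenX. Without SCD the summed share was 226 and 73.4 under DMSO, 735 and 175 under 10 µM and 311 and 235 under 100 µM GenX. In 10 µM replicate 1, 16 of the 19 counts were SQLE.

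The shares of 2 groups did not overlap for 2 to 4 of the 6 members with a count, depending on the comparison. INSIG1, with no count, is left out here as in the background. At 10 µM against control, 2 of the 6 (FASN and SCD) lay lower in both libraries, against 10.5% of the 19597 nuclear genes with a count, and 0 lay higher, against 3.41%. At 100 µM against control, 2 (SQLE and IDI1) lay higher, against 26.1%, and 1 (FASN) lower, against 4.29%. At 100 µM against 10 µM, 4 (FDFT1, IDI1, FASN and SCD) lay higher, against 34.6%, and 0 lower, against 2.75%. Zeros entered these counts as 0. FDFT1, IDI1 and FASN had 0 counts at 10 µM and lay below the limit of those libraries at 100 µM, so that SCD alone gave a measured difference there. FASN in control 2 (55.0) also lay below both limits at 10 µM, 122 and 263, and in control 1 (139) below the second, and at 100 µM IDI1 and the lower SQLE value lay below the 55.0 that control 2 allows.

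**Figure D4:**
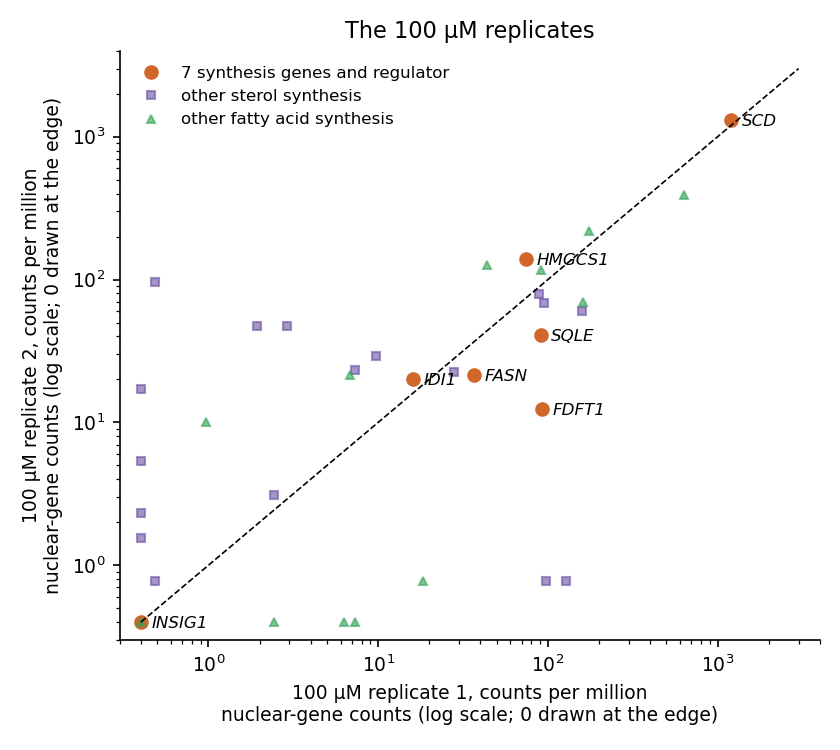
Share of nuclear-gene counts in 100 µM replicate 1 against replicate 2 (nuclear CPM, both axes log, 0 drawn at the edge) for the 7 genes and for other genes of sterol and fatty acid synthesis, with the line of equal shares. SCD and IDI1 lie on or near the line, FDFT1 lies 7.48-fold off it, and ACAT2, another sterol synthesis gene, had 263 counts in replicate 1 and 1 in replicate 2.

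The 2 libraries at 100 µM, the deepest, show how far replicates of 1 dose differed. Over 7683 nuclear genes with a mean of at least 20 counts there, the median difference in share between the replicates was 2.21-fold, computed after adding 0.5 counts to each value. SCD (1.09-fold), IDI1 (1.26), FASN (1.68) and HMGCS1 (1.87) differed by less than this median on the same scale, SQLE (2.21) equalled it and FDFT1 (7.27) stood at the upper quartile. The differences of FDFT1, SQLE, HMGCS1, FASN and SCD between these replicates were each wider than counting error allows, with intervals of 4.49 to 13.4, 1.63 to 3.08, 1.504 to 2.34, 1.09 to 2.73 and, for SCD, 0.864 to 0.978 as replicate 1 over replicate 2. The interval of IDI1, 0.461 to 1.38 on the same ratio, included 1. Replicate 1 was the higher for FDFT1, SQLE and FASN and replicate 2 for HMGCS1 and SCD.

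Other genes of the pathways were taken from lists of 17 sterol synthesis genes, 12 fatty acid synthesis genes, 11 regulators and uptake genes of the SREBP system and 8 targets of the oxysterol receptor LXR. Of these 5, 5, 5 and 2 were tested, and 0 passed in any comparison. Among the sterol genes, MSMO1, a sterol demethylase, had 93 and 0 counts under DMSO, 0 and 0 under 10 µM and 58 and 29 under 100 µM GenX. EBP, a sterol isomerase, had 43 and 1, then 0 and 0, then 329 and 78. Both were at 0 at 10 µM, and of the 2 controls both were counted mainly in the first, as HMGCS1 was.

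Under DMSO 36.7% and 22.8% of all protein-coding nuclear genes had a count, under 10 µM 18.0% and 12.6%, and under 100 µM 54.3% and 48.0%. Of the 17 sterol genes, 8 and 9 were counted under DMSO, 2 and 1 under 10 µM and 13 and 17 under 100 µM GenX. Their summed share was 830 and 1101 nuclear CPM under DMSO, 286 and 175 under 10 µM and 621 and 504 under 100 µM GenX. It was lower in both 100 µM libraries than in both controls, while the sum of the 7 members at 100 µM lay between its control values.

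Among fatty acid genes, ACSL3, which activates fatty acids at lipid droplets and the endoplasmic reticulum, had 70 and 2 counts under DMSO, 3 and 0 under 10 µM and 1302 and 503 under 100 µM GenX. LPIN1, a phosphatidate phosphatase, had 72 and 2, then 0 and 0, then 359 and 283. FADS1, a fatty acid desaturase like SCD but acting on polyunsaturated chains, had 9 and 12, then 2 and 1, then 189 and 152. For the 12 genes together the share was 691 and 349 nuclear CPM under DMSO, 653 and 964 under 10 µM and 1143 and 954 under 100 µM GenX, so its 10 µM values did not lie below both controls as those of SCD did. At 10 µM against control the median log2 fold change of the tested genes was -8.09 in the sterol list, -1.54 in the fatty acid list, -4.04 among the regulators and -6.55 among the LXR targets, beside -3.18 for all tested genes. Each list held tested genes at 0 in 1 of the groups, such as EBP, LPIN1, NPC1 and ABCA1 at 10 µM, whose fitted values depend on the prior count and are no bounds.

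Among regulators, INSIG2 was the most abundant, at 864 and 55.0 nuclear CPM under DMSO, 40.8 and a limit of 263 under 10 µM and 1520 and 1291 under 100 µM GenX. MBTPS1, the first of the proteases that release SREBP, had 142 and 5 counts under DMSO, 1 and 1 under 10 µM and 146 and 29 under 100 µM GenX. NPC1, which exports cholesterol from lysosomes, had 24 and 0, then 0 and 0, then 659 and 478. The genes of the factors themselves were also looked at, after their values were seen. SREBF1 had 11 and 3 counts under DMSO, 8 and 1 under 10 µM and 147 and 81 under 100 µM GenX, and SREBF2 had 9 and 2, 0 and 0, and 160 and 46. Among LXR targets ABCA1, a cholesterol exporter, had 463 counts in control 1 and 0 in control 2, then 0 and 0, then 196 and 202. MYLIP, which marks the low-density lipoprotein receptor for breakdown, had 710 and 685 counts at 100 µM and 0 in the other 4 libraries. NR1H3, an LXR itself, had at most 3 counts in any library.

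By the correlation of log2 CPM over the 6 libraries with the members' summed counts, the most similar of 2458 abundant protein-coding genes included GPATCH2L (Pearson r = 0.995), DAAM1 (0.990), FOXP1 (0.986) and CADM1 (0.985). These were high in control 1 and at 100 µM and at 0 to 6 counts in control 2 and the 10 µM libraries. GPATCH2L, for example, had 148 and 1 counts under DMSO, 1 and 0 under 10 µM and 415 and 516 under 100 µM GenX. The correlations rest on 6 points that differ widely in depth and were picked as the highest of many, and they say nothing about shared function.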

How the data were processed

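The authors deposited raw counts of reads per gene, a separate featureCounts table for each library, per the file headers. Per the submitters' processing notes FastQC, STAR, featureCounts and DESeq2 were used with GRCh38. Not given in the sources used here: tool versions, annotation release, strand setting and how overlapping reads were handled. The tables had 0 lines that named no gene. Symbols came from a table of Ensembl names, which held 56410 of the 57500 identifiers, and from GENCODE v29.

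The 7 members were given by name, and members and lists were chosen with earlier results of these data known. Groups came from the sample titles. Genes were tested with edgeR 4.0.16 (R 4.3.3): filterByExpr (3180 genes kept), TMM scaling and robust quasi-likelihood fits of all 6 libraries, Benjamini-Hochberg adjustment over all genes tested and a threshold of 0.05. The SE beside each edgeR log2 fold change was derived as its absolute value divided by the square root of the test's F value. Shares used the counts on genes off the mitochondrial genome, with exact 95% intervals (scipy 1.17.1, pandas 2.3.3). Ratios of pooled counts carry exact conditional 95% counting intervals. Where a group was at 0 it was set to 3 counts over its pooled total. Folds set that way carry no interval and leave out the counting error of the other group. Named genes outside the members were the 3 of each list with the highest mean CPM, any that passed, and the 5 most correlated of those with a mean of at least 50 CPM, with log2 CPM computed from the deposited counts with a prior count of 2. Some genes that this rule names are not reported here. Fits were tested on simulated data. DESeq2 1.42.0 and the other alternatives are given in the closing section.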

Additional observations from a re-analysis of the deposited data

How the results depend on the processing

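The number of members that passed, 0 in each of the 3 comparisons, held under DESeq2 size factors, library sizes alone and nuclear genes only. It also held with no filter on low counts and with the replicate block. In DESeq2's Wald test it held too, with an adjusted p for 4, 1 and 4 of the members. At 100 µM against 10 µM it became 1 (SCD) with a mean of at least 5 CPM and with only the 4 libraries compared. Over all genes tested, the alternatives with 2 libraries per group called from 1 to 206 at 10 µM against control (19 in the report). They called from 0 to 22 at 100 µM against control (0) and from 0 to 925 at 100 µM against 10 µM (91). In the same order, DESeq2 size factors moved the median log2 fold change from -3.18 to -2.66, from 0.35 to -0.05 and from 3.52 to 2.54. DESeq2's Wald test gave medians of 0, -0.52 and -1.16, but over all genes with a count, a wider set. Without control 1 the first median was 0, as with no filter. Leaving out 1 library, from 0 to 1 members passed at 10 µM against control and from 0 to 1 at 100 µM against 10 µM, the 1 being SCD without a control. With the replicate number as a block SCD had -4.16, 3.97 and -0.20, and 0 members passed. The labels pair libraries across doses by replicate number alone. Differences between replicates 1 and 2 correlated between groups at 0.000331, 0.00315 and -0.0222 over 3180 genes. With few counts per gene in the controls and 10 µM libraries, these values cannot show whether same-numbered libraries were handled together.

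The direction for SCD was kept in all 14 alternatives at 10 µM against control (-6.22 to -2.53, adjusted p from 7.13e-05 to 0.538) and at 100 against 10 µM (3.08 to 6.14, adjusted p from 0.000191 to 0.529). At 100 µM against control it turned upward in 6 of 14: 0.43 with library sizes alone, 0.54 with the 5 CPM filter, 0.19 with no filter, 0.19 without 100 µM replicate 1, 0.19 without 100 µM replicate 2 and 2.21 without control 1. Leaving out 1 library gave from -0.94 to 2.21. HMGCS1 at 10 µM against control turned to 0.11 in DESeq2's Wald test, 0.35 with DESeq2 size factors, 0.50 with library sizes alone and 0.10 with the replicate block. At 100 µM against control it turned to -0.10 with DESeq2 size factors and -0.30 without control 2 (from -0.30 to 0.64 leaving out 1 library), and at 100 against 10 µM to -0.0605 and -0.45 in DESeq2's Wald test and with its size factors. SQLE at 100 against 10 µM turned to 8.58 without 10 µM replicate 1 (from -2.11 to 8.58 leaving out 1 library). The cause was not tested.

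The summed share of the 7 genes at 10 µM moved from 607 to 303 CPM when all counts were the denominator. At 100 µM it became 1478 over all counts, 1583 without MALAT1 and NEAT1, 1671 without the 10 most abundant nuclear genes, and 273 without SCD, an alternative chosen after seeing the data. Leaving out 1 library gave from 422 to 1807 in the controls, from 438 to 775 at 10 µM and from 1516 to 1546 at 100 µM. Depth limits the members most at 10 µM, where 3 counts equal 122 and 263 nuclear CPM, more than most members reached elsewhere.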
